A study of Mus musculus with 6 samples.

Results

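The nuclear-encoded subunits of oxidative phosphorylation were followed in the uterus of floxed control mice and mice with Nat10 deleted, a gene which encodes an enzyme that acetylates cytidines in RNA. Members were chosen by gene symbol alone, from the names in use for subunits of the 5 complexes (Nduf with a, b, c, s or v and a number, Sdha to Sdhd, Uqcr, Cox4 to Cox8, and Atp5), and assembly factors were left out. Of the 20637 listed genes 81 matched, namely 37 of complex I, 4 of complex II, 8 of complex III, 18 of complex IV and 14 of complex V. Poly(A) RNA had been sequenced from the whole uterus of female mice on postnatal day 21, as 3 libraries of floxed controls (Nat10 f/f) and 3 of mice with Nat10 deleted (Nat10 d/d). The Cre line behind the deletion, the cells it acted in and the strain are not given in the sources used here, and neither is whether a library came from 1 animal or a pool. P-values therefore measure the spread between these libraries, whatever their source.

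Oxidative phosphorylation is the last stage of aerobic ATP production. Complexes I to IV of the inner mitochondrial membrane pass electrons from NADH and succinate to oxygen and, other than complex II, pump protons, and complex V (ATP synthase) uses the proton gradient to make ATP. Most subunits are encoded in the nucleus, are imported into mitochondria and are made in every nucleated cell, while a few subunits of complex IV exist in tissue-restricted versions.

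Values are FPKM, that is, abundance per transcript length and per library size. Nat10 itself was at 9.95 to 16.4 FPKM in controls, against 5.23 to 5.57 in Nat10-deleted uteri, 41.4% of the control mean. All 12 uterine markers looked for passed the filter on low values, among them Esr1, Hoxa10 and Myh11, and of 8 ovary markers Zp3, Oosp1, Fshr and Cyp19a1 were at 0 in every library, Amh reached 0.68 FPKM, and Inha (up to 9.24), Inhbb (2.10 to 3.33) and Gdf9 (0.40 to 1.58) passed the filter. Relative sequencing depth, read from the lowest values, lay between 0.805 and 1.016 of that of control replicate 1, and the absolute depth is unknown. Nat10-deleted replicate 2 stood apart: the summed FPKM of 12 proliferation markers was 95.3, 24.7 and 62.7 in control replicates 1, 2 and 3 but 20.5, 228 and 11.6 in deleted replicates 1, 2 and 3.

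The subunit genes were among the abundant transcripts of the uterus. A gene was tested if it reached 1 FPKM in at least 3 libraries, which kept 12640 genes and 78 of the 81 members. Of these, 63 lay in the top 10% of tested genes by mean level, and their median FPKM was 112 against 13.4 for all genes tested. By complex, the median level of the tested members was 99.6 FPKM for complex I, 96.9 for complex II, 94.8 for complex III, 157 for complex IV and 230 for complex V. All members together took up 2.32% to 2.60% of the summed FPKM in controls. They took up 2.44% and 2.28% in deleted replicates 1 and 3 and 3.32% in deleted replicate 2. Most members are short transcripts, with a median annotated length of 998 bases against 3431 for all genes tested.

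Within most complexes the levels spanned a wide range. In complex I the highest member was Ndufa3, an accessory subunit, at 358, 367 and 374 FPKM in controls, against 396, 594 and 311 in Nat10-deleted uteri. The lowest was Ndufa11, also accessory, at 12.8, 14.4 and 12.1 in controls, against 11.7, 20.8 and 10.4 in Nat10-deleted uteri. Complex II was the most even, with mean levels between 79.8 FPKM for Sdhd and 109 for Sdhc, which together anchor the complex in the membrane. In complex III, Uqcrh, the hinge protein, was highest and Uqcrq lowest, the latter at 20.5 to 22.4 in controls, against 17.2 to 41.8 in Nat10-deleted uteri. Cox6c was the most abundant member of all, at 744, 653 and 522 FPKM in controls, against 762, 1046 and 570 in Nat10-deleted uteri. In complex V the highest was Atp5j2, a subunit of the membrane part, at 370 to 509 in controls, against 363 to 718 in Nat10-deleted uteri, and the lowest was Atp5g1, at 81.1 to 106 and 69.8 to 153. In Ndufa3, Ndufa11, Uqcrq, Cox6c, Atp5j2 and Atp5g1 alike, deleted replicate 2 was the highest of the 6 libraries. The other deleted libraries lay inside the control range or on either side of it. Ndufa3, for example, was at 311 in deleted replicate 3, against 358 in its lowest control.

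No member differed between Nat10-deleted and control uteri at an adjusted p of 0.05 (limma, Benjamini-Hochberg over all 12640 genes), and 0% of all genes did. The smallest adjusted p of any member was 0.922. At an unadjusted p under 0.05 there was 1 member, Ndufc2, or 1 of 78 against 4.98% of all genes tested. Groups did not overlap for that same member alone, which was higher in deleted uteri, against 10.7% of all genes tested in either direction and 6.12% in that direction. On average 65 members were higher and 13 lower in deleted uteri, with a median log2 change of 0.13, where 56.6% of all genes tested were higher and their median was 0.03. The members higher and lower numbered 55 and 23 after quantile normalization, and 48 and 30 after a correction for GC content and transcript length. Of the 78, 76 had a log2 change of less than 0.5 in size. The exceptions were Cox6b2 and Cox8b.

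This balance of directions rested on deleted replicate 2. Without it 28 members were higher and 50 lower, and the median log2 change was -0.06 in place of 0.13. For all genes tested 54.2% were then higher. Still 0 members passed the adjusted threshold, against 0.0958% of all genes, and 7 had an unadjusted p under 0.05 in limma, against 13.6% of all genes. Leaving out deleted replicate 3 instead gave a median of 0.28, with 70 members higher and 8 lower and 12 at an unadjusted p under 0.05, against 11.1% of all genes. With array quality weights, which let limma count a deviating library for less, 0 members passed, against 2.5% of all genes, and 12 had an unadjusted p under 0.05, against 29.5% of all genes.

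**Figure D1:**
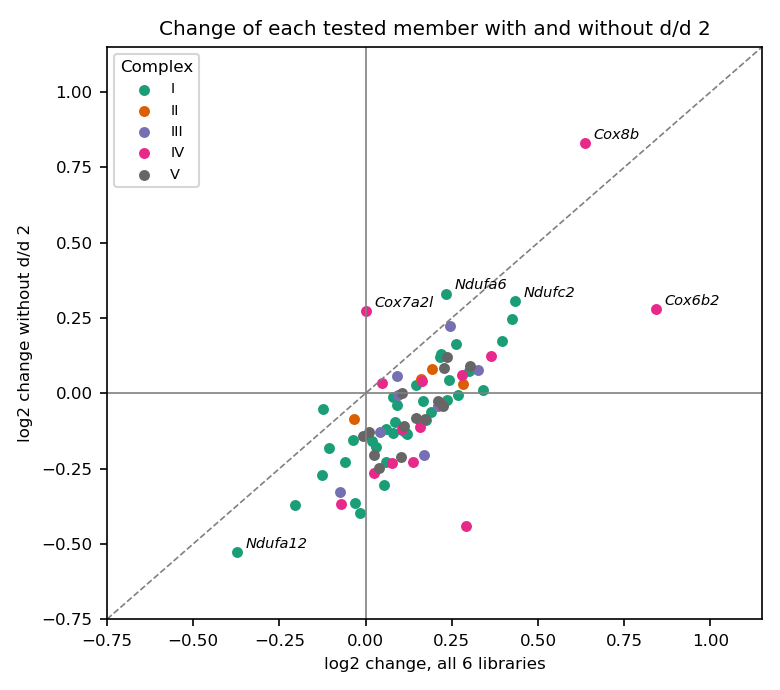
Log2 change (Nat10-deleted minus control, log2(FPKM + 1) scale) of each of the 78 tested members with all 6 libraries on the x axis and without Nat10-deleted replicate 2 on the y axis, coloured by complex; the dashed line marks equal values. With all libraries 65 members lie right of 0, and without deleted replicate 2 only 28 lie above 0; Cox7a2l, Ndufa6, Cox8b and Ndufa4l2 lie above the dashed line.

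In 69 of the 78 tested members, or 88.5%, deleted replicate 2 was the highest of the 6 libraries. It was the highest for 30.1% of all genes tested. By complex this held for 32 of 37 members of complex I, 3 of 4 of complex II, 8 of 8 of complex III, 12 of 15 of complex IV and 14 of 14 of complex V. In the same number of members, 69, it lay above every control, against 38.4% of all genes tested. In 36 members its value was at least 1.5 times the control mean, and the share of all genes that reached this was not computed. Relative to the control mean, the median of all tested members in deleted replicate 2 was 0.55 on the log2 scale, against 0.02 and -0.15 in deleted replicates 1 and 3 and 0.10, 0.03 and -0.13 in control replicates 1, 2 and 3.

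The shift was found in all 5 complexes. The median in deleted replicate 2 was 0.50 for complex I, 0.41 for complex II, 0.41 for complex III, 0.69 for complex IV and 0.58 for complex V, while no complex exceeded 0.16 in any control or 0.12 in the other deleted libraries. After quantile normalization these medians were smaller, at 0.34, 0.21, 0.19, 0.54 and 0.35 for complexes I to V, and after the correction for GC content and transcript length they were 0.35, 0.29, 0.36, 0.47 and 0.40. Deleted replicate 3 lay at the other end, below every control for 39 of the 78 members, against 25.5% of all genes tested, and above every control for 4, against 34% of all genes tested. Deleted replicate 1 was below every control for 19, against 31.9% of all genes tested, and above for 27, against 34.2%, and was inside the control range for 32. The spread of the deleted libraries was 2.54 times that of the controls (ratio of SDs on the log2 scale, median over members), against 1.73 for all genes tested. Without deleted replicate 2 the ratio was 0.98 for the members and 1.05 for all genes. These ratios set the SD of deleted replicates 1 and 3 alone against that of all controls. They rest on fewer libraries and cannot be compared directly with those above.

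**Figure D2:**
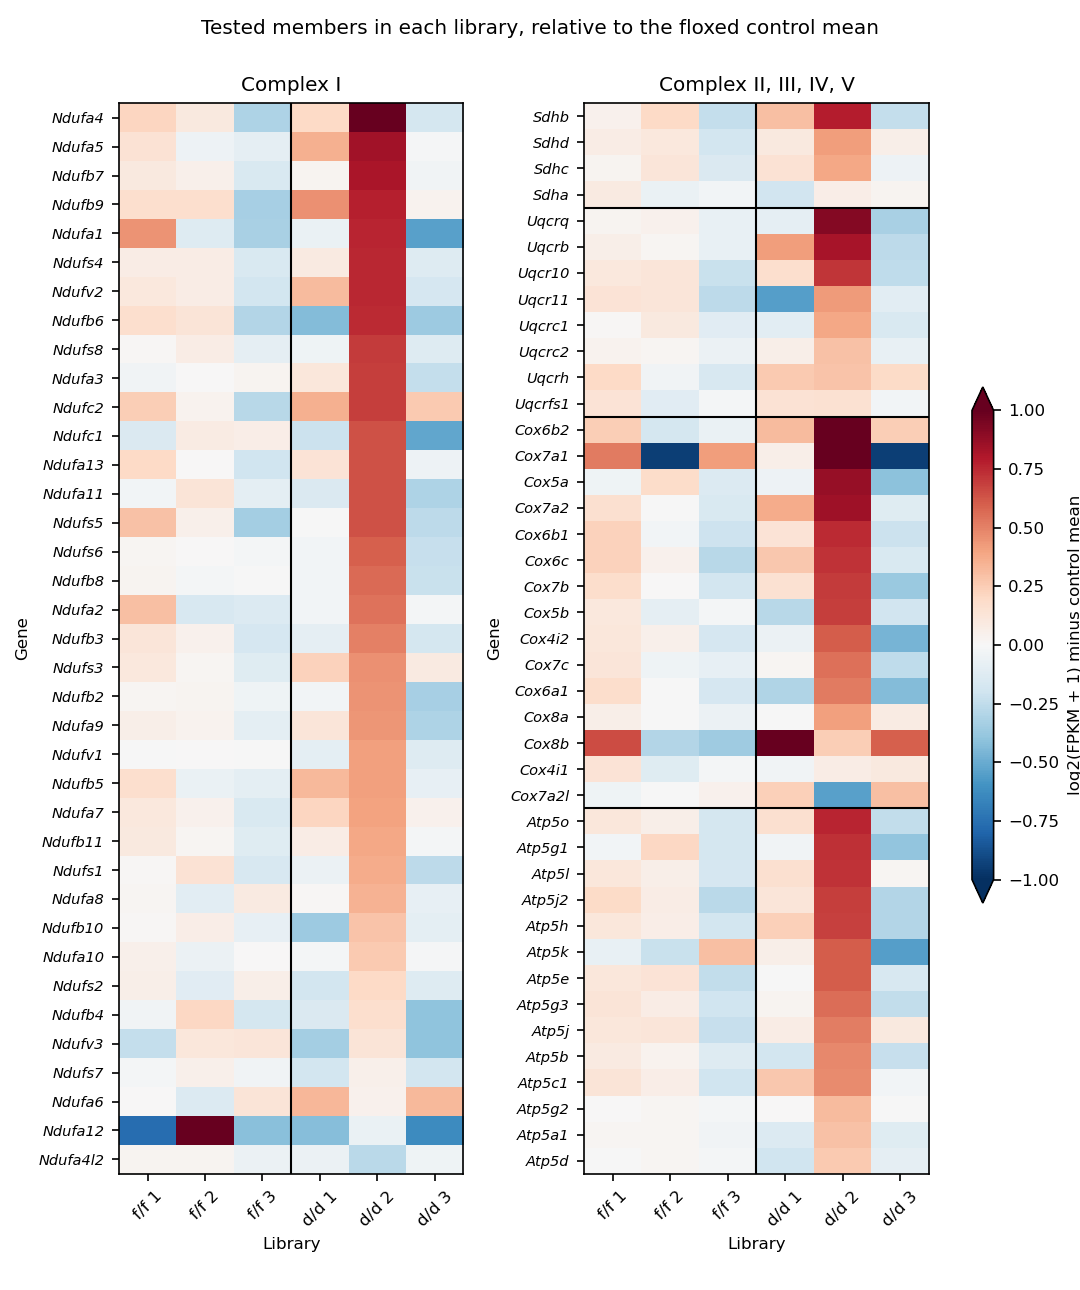
Each tested member (rows, grouped by complex and ordered within a complex by the value in d/d replicate 2) in each library (columns: f/f, floxed control; d/d, Nat10-deleted), as log2(FPKM + 1) minus the mean of the 3 controls; colours saturate at 1 in either direction. The d/d 2 column is the highest library for 69 of the 78 members, with Cox7a2l and Ndufa4l2 as members at their lowest there.

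The shift in deleted replicate 2 was found under every scaling run, in differing size. The median of the members in that library was 0.50 after median centring, 0.35 after quantile normalization and 0.37 after a correction for GC content and transcript length. Cytosolic ribosomal protein genes, a list chosen after its values were seen, had a median of 0.01 in deleted replicate 2, and -0.14 once GC content and length were corrected for. That library was the highest for 16 of 81 of them.

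Proliferation markers were high in the same library: all 11 that were tested were highest in deleted replicate 2, with Mki67 at 23.97 FPKM there, 2.30 and 1.28 in deleted replicates 1 and 3, and 10.7, 2.47 and 7.57 in the controls. Relative to the control mean, the median of these markers was 0.61, -0.83 and 0.22 in control replicates 1, 2 and 3 and -1.09, 1.80 and -1.54 in deleted replicates 1, 2 and 3. The highest library of each group and the lowest deleted library were thus the same ones for these markers and for the members, while control replicates 2 and 3 stood in opposite order. The part of dividing cells in the shift was not tested. In whole tissue, more cells of a kind rich in mitochondria and more RNA per cell cannot be told apart. Of 12 uterine markers, 6 were lowest in deleted replicate 2, as were 3243 of the 12640 genes tested, and 1, Wnt7a, was highest there (24.7 FPKM). The median of all 12 in that library was -0.25, against -0.10 to 0.04 in the other libraries. Esr1 was at 102 FPKM in deleted replicate 2, inside the control range of 83.9 to 134. Pdgfra of the stroma was at 39.5 FPKM in deleted replicate 2, 58.3 and 77.3 in deleted replicates 1 and 3 and 65.1 to 91.7 in controls. The part of the cells behind these markers in the shift was not tested either. Of 10 skeletal muscle markers, Myh1, Myh2 and Myh4 were at 0 in every library, while Acta1 was at 35.3 to 53.99 FPKM and Tnnt3 at 2.80 to 5.85. Of 9 fat markers, Ucp1 of brown fat was at or near 0 in every library, while Fabp4 reached 42.2 in control replicate 1. The summed FPKM of the skeletal muscle markers was 44.0 to 64.0 in controls, against 43.2 to 53.3 in Nat10-deleted uteri, and that of 9 smooth muscle markers was 4534 to 5236 and, in deleted libraries, 4224 to 5356. The 7 blood markers summed to 852 to 5582 in controls, against 709 to 1723 in Nat10-deleted uteri, the fat markers to 5.78 to 55.8 and 8.64 to 15.3, and the 8 epithelial markers to 597 to 696 and 677 to 768. In none of these 5 sums was deleted replicate 2 the highest of all libraries. Sums follow the most abundant genes, and single markers differed. Deleted replicate 2 was the highest for 1 of 9 smooth muscle markers (Actg2, 486 FPKM) and for 3 of 8 epithelial markers, against 30.1% of all genes tested. The part of these cell types in the shift was not tested.

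Complex I takes electrons from NADH and is the largest of the 5. Across its 37 members the median log2 change was 0.11, and -0.09 without deleted replicate 2. It was 0.26 without deleted replicate 3, 0.17 without deleted replicate 1, and 0.04 both after quantile normalization and with the GC content and length correction. On average 28 were higher and 9 lower (11 and 26 without deleted replicate 2). Ndufc2 (chr7:97400003-97407802 in GRCm38, the build also called mm10), an accessory subunit of the membrane arm, was at 206, 177 and 143 FPKM in controls and 222, 280 and 208 in deleted replicates 1, 2 and 3. The lowest deleted library thus lay just above the highest control. The means were 175 ± 31.5 and 236 ± 38.3 (SD, n = 3), a log2 change of 0.43 (SE 0.17; limma adjusted p = 0.922). Its two-sided p by exact permutation was 0.1, and no arrangement of 3 and 3 libraries can give less. Without deleted replicate 2 its log2 change was 0.31 (limma adjusted p = 0.441), and leaving out each library in turn gave 0.29 to 0.56. Ndufs3, a core subunit of the matrix arm, was at 68.9, 64.7 and 58.5 in controls, against 75.3, 88.1 and 68.2 in Nat10-deleted uteri, so that deleted replicate 3 lay inside the control range. Here the log2 change came to 0.26 (SE 0.13; limma adjusted p = 0.922), and to 0.16 (without deleted replicate 2) to 0.35 when 1 library was left out.

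A few complex I members did not follow the others. Ndufa6 (chr15:82350140-82354322), an accessory subunit, was at 170, 154 and 185 FPKM in controls, 214 and 212 in deleted replicates 1 and 3, and 174 in deleted replicate 2. It was thus highest where most members were near or below the controls. Its log2 change was 0.23 with all libraries and 0.33 without deleted replicate 2 (limma adjusted p = 0.264). Ndufs7, a core subunit that carries an iron-sulfur cluster, was at 102, 107 and 101 in controls, against 90.5, 107 and 90.9 in Nat10-deleted uteri. Ndufa12 was at 11.5, 47.4 and 14.9 in controls, against 14.8, 19.4 and 12.8 in Nat10-deleted uteri. Control replicate 2 alone made its mean change -0.37, and without that library the change was 0.22.

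Complex II, succinate dehydrogenase, links the tricarboxylic acid cycle to the chain and has no mitochondrially encoded subunit. Its members, 3 of them higher and 1 lower, had 0.18 as their median log2 change. Without deleted replicate 2 that median was 0.04, again with 3 higher and 1 lower, and without control replicate 3 it was 0.10. Without deleted replicate 3 it was 0.26. Quantile normalization gave 0.12 and so did the GC content and length correction. Sdhd was at 78.0, 79.7 and 65.0 FPKM in controls, against 79.4, 99.3 and 77.1 in Nat10-deleted uteri (log2 change 0.19, SE 0.14; limma adjusted p = 0.926; 0.08 without deleted replicate 2, 0.10 without control replicate 3 or with the GC content and length correction). Sdhc was at 104, 111 and 92.2 in controls, against 113, 134 and 98.4 in Nat10-deleted uteri (log2 change 0.16, SE 0.14; limma adjusted p = 0.943; 0.05 without deleted replicate 2, 0.09 without control replicate 3). Without deleted replicate 3 the change was larger, at 0.26 for Sdhd and 0.27 for Sdhc. Sdhb, the iron-sulfur subunit, ranged from 63.3 to 86.4 in controls and from 63.5 to 130 in deleted libraries. The catalytic flavoprotein gene Sdha was the member without this pattern, at 116, 105 and 108 in controls, against 95.5, 114 and 111 in Nat10-deleted uteri. The 3 genes with the upward shift in deleted replicate 2 therefore sat beside Sdha, which stayed within the control range there.

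Complex III passes electrons from ubiquinol to cytochrome c. On average 7 of its 8 members were higher and 1 lower, and without deleted replicate 2 these numbers were 3 and 5. The median log2 change was 0.13 with all libraries and -0.02 without that library. It was 0.22 without deleted replicate 3, 0.20 without deleted replicate 1, 0.09 without control replicate 3 and 0.06 with the GC content and length correction. Uqcrh was at 395, 336 and 308 FPKM in controls, against 413, 421 and 393 in Nat10-deleted uteri. All but the lowest deleted library were above every control, and the SD was smaller in deleted uteri (14.3) than in controls (44.6). The log2 change of Uqcrh came to 0.25 (SE 0.13; limma adjusted p = 0.922). It came to 0.34 without control replicate 1, 0.22 without deleted replicate 2, 0.16 without control replicate 3 and 0.09 with the GC content and length correction. Uqcrb was at 83.3, 81.2 and 75.9 in controls, against 107, 142 and 66.5 in Nat10-deleted uteri, which lay on both sides of the controls (log2 change 0.33, SE 0.25; limma adjusted p = 0.926). Without deleted replicate 2 its change was 0.08, without deleted replicate 3 it was 0.62, and with the GC content and length correction 0.08. Uqcrfs1, the Rieske iron-sulfur protein, was at 72.0, 60.5 and 64.4 in controls, against 72.6, 73.0 and 64.2 in Nat10-deleted uteri, the smallest shift of the complex in deleted replicate 2 (1.11 times the control mean).

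Complex IV, cytochrome c oxidase, reduces oxygen. Of its 18 members 15 were tested, 14 of them higher and 1 lower on average (7 and 8 without deleted replicate 2). The median log2 change was 0.16, and -0.04 without that library. It was 0.41 without deleted replicate 3, 0.25 without deleted replicate 1, 0.07 without control replicate 3, 0.09 after quantile normalization and 0.02 with the GC content and length correction. Cox6b2 (chr7:4751792-4753094), the version of subunit VIb known from testis, was at 39.1, 28.9 and 31.3 FPKM in controls, against 41.1, 132 and 39.0 in Nat10-deleted uteri. Deleted replicate 2 was at 3.97 times the control mean, and deleted replicate 3 lay just inside the control range. The means were 33.1 ± 5.30 and 70.6 ± 52.8 (SD, n = 3), with a log2 change of 0.84 (SE 0.43; limma adjusted p = 0.922) that came to 0.28 without deleted replicate 2 and to 0.75 to 1.14 when any other library was left out. Cox8b, the heart and skeletal muscle version of subunit VIII, was at 9.14, 4.26 and 4.03 in controls, against 12.5, 6.66 and 8.78 in Nat10-deleted uteri. Its log2 change of 0.64 (SE 0.31; limma adjusted p = 0.922) was 0.83 without deleted replicate 2, 0.42 without deleted replicate 1 and 0.96 without control replicate 1, and the groups overlapped through control replicate 1.

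Other complex IV members showed the shift and its absence side by side. Cox5a, a nuclear subunit in contact with the catalytic core, was at 59.9, 70.4 and 56.0 FPKM in controls, 59.6 and 46.3 in deleted replicates 1 and 3, and 114 in deleted replicate 2. Cox4i1, which encodes the main version of subunit IV, was at 638, 534 and 571 in controls, against 567, 611 and 620 in Nat10-deleted uteri, all within the control range. Cox7a2l (chr17:83501918-83517330) encodes a protein that joins complexes III and IV into supercomplexes. It went the other way, at 350, 358 and 372 in controls, 425 and 445 in deleted replicates 1 and 3, and 247 in deleted replicate 2. With all libraries its log2 change was 0.00, and without deleted replicate 2 it was 0.27 (limma adjusted p = 0.289).

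The tissue-restricted versions of complex IV subunits were minor in every uterus. Cox4i2 made up 2.11% to 2.64% of the Cox4i1 and Cox4i2 total in controls and 1.56% to 3.44% in deleted libraries. Cox6b2 made up 8.05% to 9.67% of the Cox6b1 and Cox6b2 total in controls and 9.99%, 18.8% and 11.9% in deleted libraries. Every deleted library was above every control in that share, by little for deleted replicate 1, and the share was picked after its values were seen and not tested. Cox8b accounted for 0.90% to 1.86% of its set in controls and 1.07% to 2.63% in deleted libraries. Cox7a1, the muscle version of subunit VIIa, was listed at 1.76, 0 and 1.56 FPKM in controls, against 1.00, 5.48 and 0 in Nat10-deleted uteri, and only just passed the filter. Cox7b2 and Cox8c were listed at 0 throughout and Cox6a2 in all but deleted replicate 3 (0.465 FPKM), and these 3 were not tested.

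**Figure D3:**
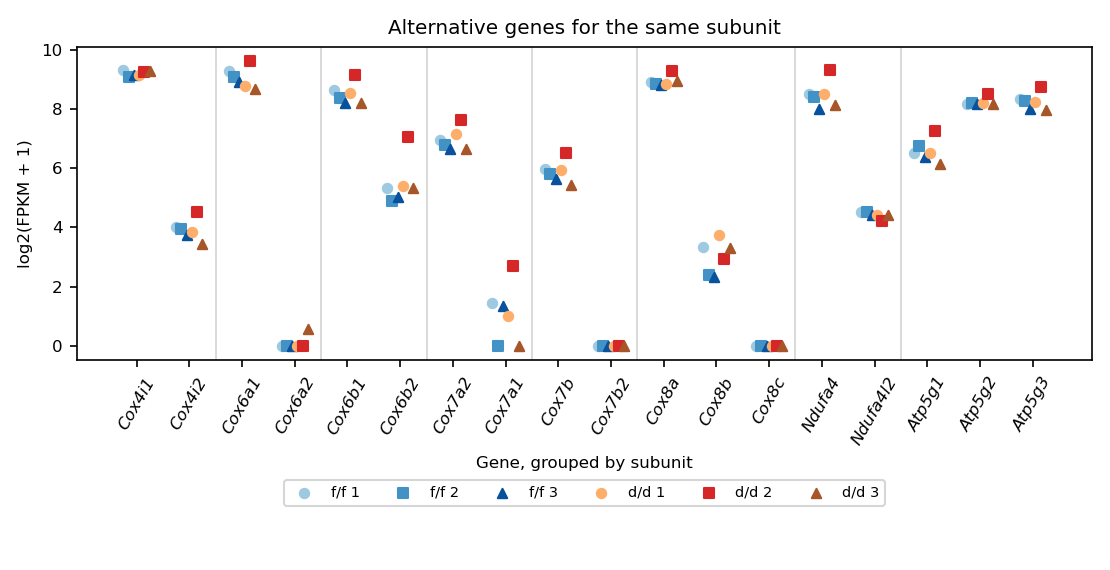
Level of the alternative genes for the same subunit in each library, as log2(FPKM + 1), with vertical lines between sets (f/f, floxed control; d/d, Nat10-deleted). The tissue-restricted genes Cox4i2, Cox6b2, Cox7a1 and Cox8b lie below their widely expressed counterparts in all 6 libraries, and Cox6b2 is highest in d/d 2 at 132 FPKM.

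Ndufa4, named for complex I though its protein is now placed in complex IV, was at 365, 337 and 254 FPKM in controls, against 362, 633 and 279 in Nat10-deleted uteri, where deleted replicate 2 reached 1.99 times the control mean. Its relative Ndufa4l2, a gene known to respond to hypoxia, was at 21.8, 21.7 and 20.4 in controls, against 20.4, 17.5 and 20.6 in Nat10-deleted uteri, lowest in deleted replicate 2. The c subunit that forms the rotor ring of ATP synthase is encoded by 3 genes with the same mature product, of which Atp5g2 and Atp5g3 gave most of the transcripts. In controls Atp5g1 gave 12.9% to 14.98% of their total, Atp5g2 41.4% to 46.0% and Atp5g3 41.0% to 45.8%. In deleted replicates 1, 2 and 3 the share of Atp5g1 was 13.2%, 16.2% and 11.5%.

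Complex V makes ATP. On average 13 of its 14 members were higher, by a median log2 change of 0.13 over all 14, and without deleted replicate 2 only 4 were higher and the median was -0.08. The median was 0.31 without deleted replicate 3, 0.21 without control replicate 2, 0.07 without control replicate 3 and 0.08 with the GC content and length correction. Atp5l, a subunit of the membrane part, was at 204, 196 and 168 FPKM in controls, against 211, 313 and 192 in Nat10-deleted uteri (log2 change 0.30, SE 0.19; limma adjusted p = 0.922). Without deleted replicate 2 its change was 0.09, and 0.22 to 0.44 when any other library was left out. Atp5c1, the central stalk subunit, was at 200, 191 and 159 in controls, against 220, 253 and 179 in Nat10-deleted uteri (log2 change 0.24, SE 0.16; limma adjusted p = 0.924; 0.12 without deleted replicate 2, 0.14 without control replicate 3, 0.37 without deleted replicate 3). Atp5b, the catalytic beta subunit, was at 437, 422 and 376 in controls, against 362, 575 and 350 in Nat10-deleted uteri. Its deleted libraries lay above and below all controls, and its log2 change was 0.03 with all libraries and -0.20 without deleted replicate 2.

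**Figure D4:**
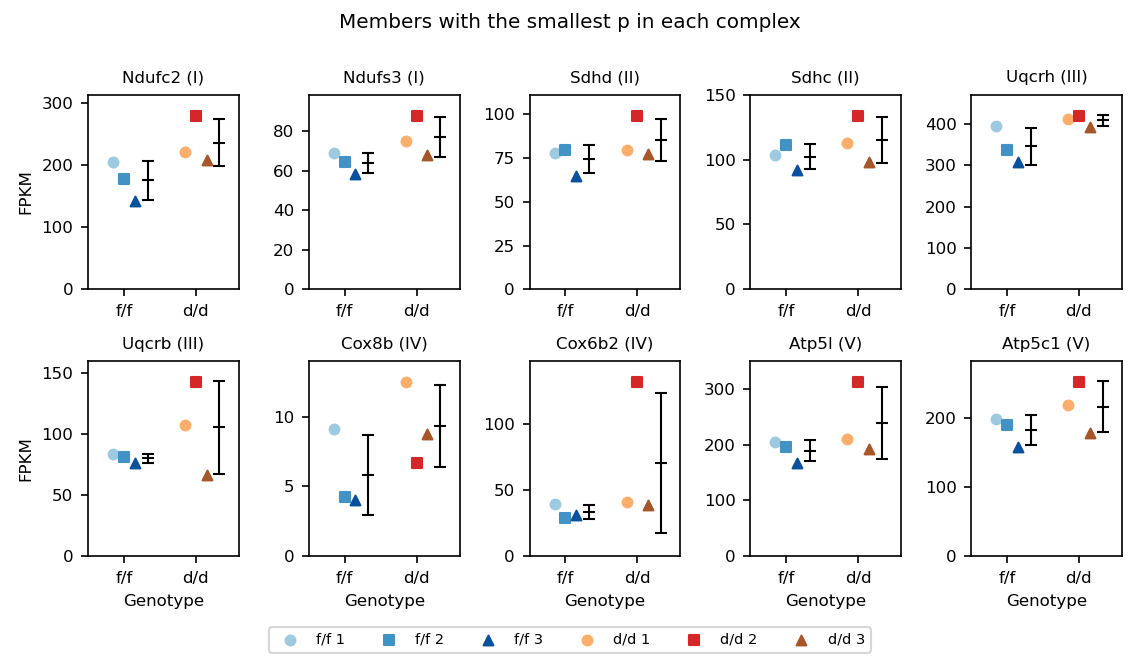
FPKM in each library of the 2 members of each complex with the smallest limma p (complex in brackets), with group mean and SD beside the points (n = 3 per group; axes start at 0). Only for Ndufc2 do the groups not overlap, and in all panels but Cox8b the highest point is d/d 2.

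Many nuclear subunit genes are known targets of the factors NRF1, GABPA (an ETS family factor) and YY1, so the promoters of the members were searched for short strings of letters that occur in their binding motifs. RefSeq promoter windows in GRCm38.p6, from 250 bases before to 30 after the start, matched 66 of the 81 members by symbol, 65 of them tested. The strings were GCATGCGC for NRF1, CCGGAAG for ETS factors and AAGATGGC for YY1, on both strands. NRF1 letters were in a window of 9 of these 65 members (13.8%), against 5.58% of 10039 tested genes with a window and 2.58% of all 32851 windows. ETS letters were in 16 (24.6%), against 18.7% and 8.45%, and YY1 letters in 3 (4.62%), against 3.90% and 2.29%. Any of the 3 was found in 22 members (33.8%), against 25.8% and 12.5%. A match is a description of the letters and shows no binding. Printed here are Cox6a1 and Sdhb, which held NRF1 and ETS letters and were highest in deleted replicate 2, Ndufc2, the member whose groups did not overlap, which held none of the strings, and Ndufa6, which held NRF1 letters and was not highest in deleted replicate 2. Capitals mark the matched letters. In Cox6a1 the NRF1 letters read on both strands overlap in a single stretch.
Cox6a1, chr5:115348929-115349208, minus strand: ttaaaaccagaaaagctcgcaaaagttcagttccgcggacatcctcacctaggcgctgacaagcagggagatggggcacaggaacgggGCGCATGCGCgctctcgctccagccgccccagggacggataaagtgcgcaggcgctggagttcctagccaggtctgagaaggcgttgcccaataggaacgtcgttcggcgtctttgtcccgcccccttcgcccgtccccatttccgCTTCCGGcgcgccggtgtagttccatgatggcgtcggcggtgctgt
Sdhb, chr4:140961021-140961300, plus strand: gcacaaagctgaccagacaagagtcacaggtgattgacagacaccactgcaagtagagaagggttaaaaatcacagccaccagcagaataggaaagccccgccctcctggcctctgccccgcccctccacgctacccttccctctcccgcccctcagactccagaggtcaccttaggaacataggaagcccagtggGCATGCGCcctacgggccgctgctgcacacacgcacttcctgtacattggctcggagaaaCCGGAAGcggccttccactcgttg
Ndufc2, chr7:97399753-97400032, plus strand: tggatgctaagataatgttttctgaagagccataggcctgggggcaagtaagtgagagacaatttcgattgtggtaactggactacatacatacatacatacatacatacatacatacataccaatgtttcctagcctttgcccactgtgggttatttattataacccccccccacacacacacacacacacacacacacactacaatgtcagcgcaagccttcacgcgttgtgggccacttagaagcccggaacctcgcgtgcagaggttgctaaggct
Ndufa6, chr15:82354262-82354541, minus strand: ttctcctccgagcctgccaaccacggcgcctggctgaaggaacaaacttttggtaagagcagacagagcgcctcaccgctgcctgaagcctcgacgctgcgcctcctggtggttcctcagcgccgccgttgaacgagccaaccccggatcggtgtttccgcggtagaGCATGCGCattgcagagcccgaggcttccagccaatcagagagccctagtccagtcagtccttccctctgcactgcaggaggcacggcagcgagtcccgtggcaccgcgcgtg
The printed members were picked for their letters and their values, so they cannot show whether the letters go with the shift, and this was not tested.

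Genes that work with the subunits were followed through lists. None of their members passed the adjusted threshold in limma in either direction, with all libraries or without deleted replicate 2. Among 15 assembly factors of complex I, 11 were higher and 4 lower, the median log2 change was 0.17 and 13 were highest in deleted replicate 2. Without that library 9 were higher and 6 lower, with a median of 0.08. The member with the smallest p was Ndufaf2, at up to 23.2 FPKM in controls and at 24.2, 44.5 and 22.2 FPKM in the deleted replicates (log2 change 0.62; limma adjusted p = 0.922; 0.31 without deleted replicate 2). Of 31 listed assembly factors of the other complexes, 23 were higher and 8 lower (median 0.06), and 18 were highest in deleted replicate 2. Without it 17 were higher and 14 lower (median 0.01). Groups did not overlap for 2 of the 31, 1 in each direction, against 10.7% of all genes tested. Surf1, a complex IV assembly factor, was the higher of these, at 35.7, 31.5 and 35.3 in controls, against 43.1, 36.4 and 49.9 in Nat10-deleted uteri, with deleted replicate 2 the lowest of its group. Coa5, also a complex IV assembly factor, was the lower, at 27.2 to 29.8 in controls and 24.6 to 27.0 in the deleted replicates (log2 change -0.13; limma adjusted p = 0.926).

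In 3 further lists of mitochondrial genes most members were highest in deleted replicate 2, against 30.1% of all genes tested. All 17 genes of the tricarboxylic acid cycle and its entry enzymes, and all 11 genes for electron carriers, nucleotide and phosphate transport and outer membrane channels, were highest there. Their medians in that library were 0.41 and 0.48. Their median log2 changes were 0.06 and 0.14 with all libraries, and -0.04 for both lists without deleted replicate 2. Slc25a5, an ADP/ATP carrier, reached at most 130 FPKM in controls, and was at 93.0 and 77.0 in deleted replicates 1 and 3 and at 239 in deleted replicate 2. Suclg2, a subunit of succinyl-CoA ligase, was the cycle gene with the smallest p, at 26.8 to 30.1 in controls, against 30.6 to 39.6 in Nat10-deleted uteri (log2 change 0.28; limma adjusted p = 0.922; 0.19 without deleted replicate 2). Its groups did not overlap, which held for 1 of the 17 and for 10.7% of all genes tested. Vdac2, a channel of the outer membrane, was at 92.8 to 95.8 in controls, against 93.8 to 126 in Nat10-deleted uteri. Of 78 mitochondrial ribosomal protein genes, 66 were highest in deleted replicate 2, and their median there was 0.43.

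Of 12 regulators, that is, genes for transcription factors, coactivators and mitochondrial transcription proteins, 2 were highest in deleted replicate 2, or 16.7% against 30.1% of all genes tested, and their median there was 0.02. Nrf1 was at 13.6, 18.4 and 14.2 FPKM in controls, against 13.9, 12.4 and 14.2 in Nat10-deleted uteri. Ppargc1a, the coactivator known as PGC-1alpha, was at 3.73 to 4.94 in controls, against 3.04 to 4.93 in Nat10-deleted uteri, lowest in deleted replicate 2. Gabpb1, a partner of GABPA, had the smallest p of the list, at 11.1, 10.9 and 12.0 in controls, against 13.6, 15.6 and 13.5 in Nat10-deleted uteri (log2 change 0.30, SE 0.11; limma adjusted p = 0.922; 0.24 without deleted replicate 2). Its groups did not overlap, as for 1 of the 12 and 10.7% of all genes tested. The 13 mitochondrially encoded subunits were not analysed here.

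**Figure D5:**
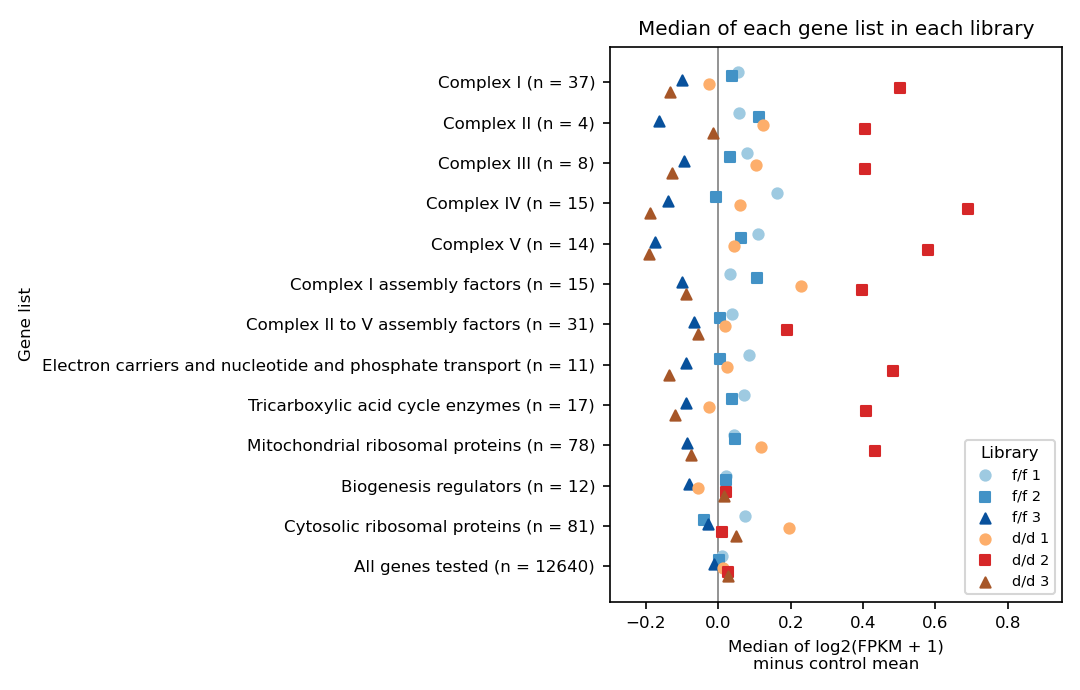
Median over the tested genes of each list of log2(FPKM + 1) minus the control mean, 1 point per library (f/f, floxed control; d/d, Nat10-deleted). In d/d 2 the 5 complexes lie between 0.41 and 0.69, the cycle enzymes at 0.41 and the mitochondrial ribosomal proteins at 0.43, while the biogenesis regulators (0.02) and cytosolic ribosomal proteins (0.01) lie near 0.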

How the data were processed

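Poly(A) RNA-seq tables of 6 whole-uterus libraries were used, 1 table per library. Per the submitters' processing notes, HISAT2 2.2.1, Cufflinks 2.2.1 and build mm10 were used by the authors. The deposited values were taken as FPKM, since that is what Cufflinks gives and the values fit it. Annotation, strandedness and settings are not given in the sources used here. For 25 members, exons overlap a gene on the opposite strand in GENCODE release M21 (among those named Ndufa11, Ndufa3, Ndufs3, Ndufa4l2, Uqcrb, Cox4i1, Cox5a, Cox6c and Atp5l), so their reads may be mixed, and processed pseudogenes may take or add reads of any member.

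Values were analysed as log2(FPKM + 1), which understates changes of low genes. Genes with at least 1 FPKM in at least 3 libraries were compared by limma 3.58.1 in R 4.3.3 (group as the only term, mean-variance trend, two-sided, Benjamini-Hochberg over all genes, threshold 0.05). Coordinates and lengths came from GENCODE. Named members are, per complex, the highest and lowest in level and the 2 with the smallest p, the tissue isoforms, and the gene with the smallest p of each pathway list. Other named members were chosen after their values were seen. The members and lists were chosen with earlier results of these data known, and the 2 ribosomal protein lists after the values were seen. Alternatives were other scalings, filters, pseudocount and variance models, the replicate number as a block, leaving out each library and, added after seeing the data, a loess correction (span 0.5) for GC content and length. Python 3.11.15, pandas 2.3.3, numpy 2.4.6 and matplotlib 3.10.9 were used.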

Additional observations from a re-analysis of the deposited data

How the results depend on the processing

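No member passed the adjusted threshold under any alternative run, including array quality weights, under which 41 members were higher and 37 lower on average. The median log2 change of all tested members was 0.10 after median centring, 0.06 after quantile normalization, 0.06 after the GC content and length correction and 0.13 with a pseudocount of 0.1. Leaving out 1 library gave medians from -0.06 (without Nat10-deleted replicate 2) to 0.28 (without Nat10-deleted replicate 3), so the direction turned with deleted replicate 2. The members higher and lower on average numbered 60 and 18 after median centring. The 2 members with the smallest p of each complex each kept the sign of its change under all alternatives run. They were picked by their p in these same libraries, so a kept sign follows in part from that choice and gives no separate support. With array quality weights the change was 0.35 for Cox6b2, 0.16 for Atp5l and 0.10 for Sdhd.

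Replicate numbers recur in both groups, but nothing says they mark a litter or batch. Deviations of same-numbered libraries from their group means had correlations of -0.34, -0.03 and 0.10 across genes, so the numbers were not taken as pairs. With the replicate block 0 members were called and the median log2 change was 0.13. Count-based tests were left out, since FPKM are not counts. Without counts, how much sampling limits low members such as Cox7a1 cannot be stated.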
